A study of Mus musculus with 6 samples.

Results

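Hcar2 and 6 other G-protein-coupled receptors of myeloid cells were followed in whole lung from mice with a transgene that blocks bone morphogenetic protein signalling in smooth muscle. The genes were Hcar2, Fpr1, Fpr2, Gpr84, Ptafr, Ltb4r1 and Adora2b. A gene was represented by every probe set, the array's unit of measurement for a transcript, that carried its symbol and no other. This gave 6 of the 45037 probe sets, for 5 of the 7 genes: 1 each for Hcar2 (1419721_at), Fpr2 (1422953_at), Gpr84 (1420591_at) and Ltb4r1 (1420407_at), and 2 for Ptafr (1427871_at and 1427872_at). No probe set was listed under Fpr1 or Adora2b alone, and these genes were not analysed here. The set was chosen by measured values, since Hcar2 was among the transcripts called at 8 weeks against control, so the receptors' levels over the groups are given as a description with no test.

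The samples were 6 pools of lung RNA, each from 3 mice and each on 1 Affymetrix array, 18 mice in all. The transgenic mice, labelled SM22-dnBMPR2, carried an inducible dominant-negative BMPR2 behind the smooth muscle promoter SM22, switched on for 1 week or for 8 weeks. Controls were described for the series as mice with the transactivator alone. The male control pool was labelled SM22-rtTA only, while the female control pool was labelled only by sex and by the strain FVB/N. Each group held 1 female and 1 male pool, and no group had a second pool of one sex. The transgenic mice had raised right ventricular pressure, per the series description. No age, and no activation time for controls, was given, and the same pair of control pools served both comparisons. The transgene was aimed at smooth muscle, whereas the RNA came from all cells of the lung, so fewer cells of a type and less RNA per cell cannot be told apart. The lung label fitted its markers, with a list of 12 measured epithelial genes, among them surfactant proteins, summing to 57579 to 64461 units of deposited intensity in every pool.

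These receptors sense chemical signals of infection, tissue damage and metabolism, and most pass them to the inhibitory Gi class of G proteins. In neutrophils, monocytes and macrophages that route drives chemotaxis, the oxidative burst or, for some ligands, restraint of inflammation. Hcar2 is the receptor for niacin, beta-hydroxybutyrate and butyrate, and is also known from fat cells, where it restrains lipolysis. Fpr1 and Fpr2 recognise N-formyl peptides from bacteria and mitochondria, and Fpr2 also binds serum amyloid A and annexin A1. Ltb4r1 is the high-affinity receptor for leukotriene B4, Ptafr the receptor for platelet-activating factor (PAF), Gpr84 a receptor for medium-chain fatty acids, and Adora2b the low-affinity adenosine receptor. In the mouse reference GRCm38.p6, Hcar2 lay beside Hcar1 on chromosome 5, Fpr2 between Fpr1 and Fpr3 on chromosome 17, and Ltb4r1 beside Ltb4r2 on chromosome 14.

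Promoters in RefSeq (GRCm38.p6) were held for 6 of the 7 genes, Hcar2 being the exception. The 250 bases before the start site of Fpr2 (chr17:17887574-17887823, plus strand) and of Ltb4r1 (chr14:55765712-55765961, plus strand) are shown because these receptors were measured in every pool and had unlike patterns. That of Gpr84 (chr15:103310439-103310688, minus strand) is shown because it held the one motif match, which is in capitals. All are written 5′ to 3′ along the gene.
Fpr2: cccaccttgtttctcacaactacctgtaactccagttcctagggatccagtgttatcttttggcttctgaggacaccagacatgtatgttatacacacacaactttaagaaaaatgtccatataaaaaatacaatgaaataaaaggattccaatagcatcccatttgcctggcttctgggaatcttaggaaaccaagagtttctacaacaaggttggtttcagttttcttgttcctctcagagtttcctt
Ltb4r1: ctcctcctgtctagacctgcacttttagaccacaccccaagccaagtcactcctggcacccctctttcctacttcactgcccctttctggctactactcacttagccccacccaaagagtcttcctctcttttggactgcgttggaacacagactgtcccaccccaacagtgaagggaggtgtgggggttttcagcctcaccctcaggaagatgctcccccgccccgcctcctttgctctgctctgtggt
Gpr84: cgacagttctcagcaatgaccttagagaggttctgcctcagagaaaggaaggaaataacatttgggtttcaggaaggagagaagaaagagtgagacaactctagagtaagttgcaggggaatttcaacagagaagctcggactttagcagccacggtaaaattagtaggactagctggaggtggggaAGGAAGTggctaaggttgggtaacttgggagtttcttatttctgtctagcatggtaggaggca
Motifs of factors active in myeloid cells were searched on both strands. They were PU.1 (AGGAAGT), AP-1 (TGANTCA), C/EBP (TTGCNNAA), kappaB (GGGANTTCC) and the hypoxia response element (ACGTG). The PU.1 letters occurred once, in Gpr84, 63 bases before the start site, and in 7.69% of 32851 promoters of that length. The other motifs matched none of the 6 windows, against 6.75% of all promoters for AP-1, 9.56% for C/EBP, 1.43% for kappaB and 16.6% for the hypoxia response element. The Fpr2 window had a GC content of 38.8% and the Ltb4r1 window 56.8%, against a median of 52.4% over all promoters.

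Hcar2 was near the detection limit in control and 1 week lungs and clearly above it at 8 weeks. Its deposited intensity was 16.39 in the female and 29.79 in the male control pool, 12.16 and 10 (the lowest value an array could take) after 1 week, then 90.61 and 165.21 after 8 weeks. Both 8 week pools lay above all 4 others, and both 1 week pools lay below both controls. The arrays were then quantile normalized, and values under 15.46 were raised to that floor (log2 3.95), so a value at the floor is an upper limit. On the normalized log2 scale Hcar2 had a level of 4.44 ± 0.57 (SD, n = 2 pools) in control, 3.95 in both 1 week pools, which were at the floor, and 7.09 ± 0.59 at 8 weeks. The difference between 8 weeks and control was 2.64 ± 0.25 (standard error), or 6.24 times, with 2.63 in females and 2.66 in males. The ratios of deposited intensity, before normalization, were 5.53 and 5.55. The sexes thus gave nearly one value for the change, while their levels stood apart. Against 1 week the 8 week pools were higher by at least 2.72 in females and 3.55 in males. The order was 8 weeks, control, 1 week. The 1 week pools were below control by at least 0.09 in females and 0.89 in males, and with both at the floor the size of this difference was not measured. Without the female control pool the 8 week difference was 2.45 and without the male one 2.84, and with a higher floor, at the 40th percentile of all values, it was 1.90. The mean of Hcar2 over the 6 pools, 5.16, was just above the limit for dim probe sets (5.15), and it passed that limit through the 8 week pools alone.

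Fpr2, the receptor for formyl peptides and serum amyloid A, was measured well above the floor in all pools and was also highest at 8 weeks. Its deposited intensity was 123.27 in the female and 174.08 in the male control pool, 166.63 and 121.72 after 1 week, then 610.76 and 569.54 after 8 weeks. The control and 1 week pools shared one range, and the 8 week pools stood above it with no overlap. The log2 level was 7.10 ± 0.44 in control, 7.14 ± 0.27 at 1 week and 9.26 ± 0.03 at 8 weeks (SD, n = 2 pools each). The difference between 8 weeks and control was 2.16 ± 0.27 (2.49 in females and 1.83 in males), and that between 8 weeks and 1 week was 2.12 ± 0.27. Control and 1 week differed by 0.04 ± 0.27, within their spread, with the female pool higher at 1 week by 0.54 and the male pool lower by 0.46. Under the alternatives tried the 8 week difference from control stayed between 1.75 and 2.58.

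Ltb4r1, the leukotriene B4 receptor, had smaller differences between the groups. Its deposited intensity was 85.8 in the female and 102.47 in the male control pool, 66.87 and 88.94 after 1 week, then 78.18 and 127.29 after 8 weeks. The groups overlapped throughout, and in each group the male pool was the higher one. The log2 level was 6.44 ± 0.24 in control, 6.25 ± 0.35 at 1 week and 6.80 ± 0.46 at 8 weeks (SD, n = 2 pools each). The difference between 8 weeks and control was 0.36 ± 0.15 after quantile normalization and 0.09 on the values as deposited, where the female pool was at 0.911 times its control. After normalization the order within each sex was 8 weeks, control, 1 week, with 8 weeks above control by 0.21 in females and 0.52 in males. The difference between 8 weeks and 1 week was 0.55 ± 0.15, 0.47 in females and 0.63 in males. The spread within a group was that between the sexes, so overlap of the groups does not show that the levels were alike.

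Gpr84 and Ptafr were too dim for a fit. Gpr84 was at the lowest deposited value, 10, in 5 of the 6 pools and at 18.52 in the female 8 week pool. The Ptafr probe set 1427871_at had a deposited intensity of 10.49 in the female and 19.89 in the male control pool, 21.33 and 20.1 after 1 week, then 22.71 and 26.2 after 8 weeks. Its 8 week pools were the highest, by 0.54 over control on the log2 scale (0.58 in females and 0.50 in males), with the female control pool at the floor. The other Ptafr probe set, 1427872_at, was between 10 and 11.73 and at the floor in every pool. The low signal leaves only upper limits for Gpr84 in 5 of the 6 pools and for 1427872_at in all of them. For 1427871_at the other pools were just above the floor. Its 8 week difference from control was 0.0 with the floor at the 40th percentile.

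Of the 3 receptors above the limit for dim probe sets, 2 (Hcar2 and Fpr2) had both 8 week pools above both controls, against 23.0% of the 27022 probe sets above that limit. The same 2 had both 8 week pools above both 1 week pools, against 20.7%. Nothing can be read from these counts, since Hcar2 was chosen on its 8 week values and passed the limit through them. By limma with Benjamini-Hochberg adjustment over all 27022 probe sets, 161 (0.596%) passed an adjusted p of 0.05 at 8 weeks against control, 56 higher and 105 lower, and the call on Hcar2 among them is the one that chose the set. At 1 week against control 0 passed (0.0%, with 1486 at an unadjusted p below 0.05), and at 8 weeks against 1 week also 0 (0.0%, with 5000). The median change at 8 weeks over all 27022 was 0.03 after quantile normalization, which holds it near 0, and -0.13 on the values as deposited.

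**Figure D1:**
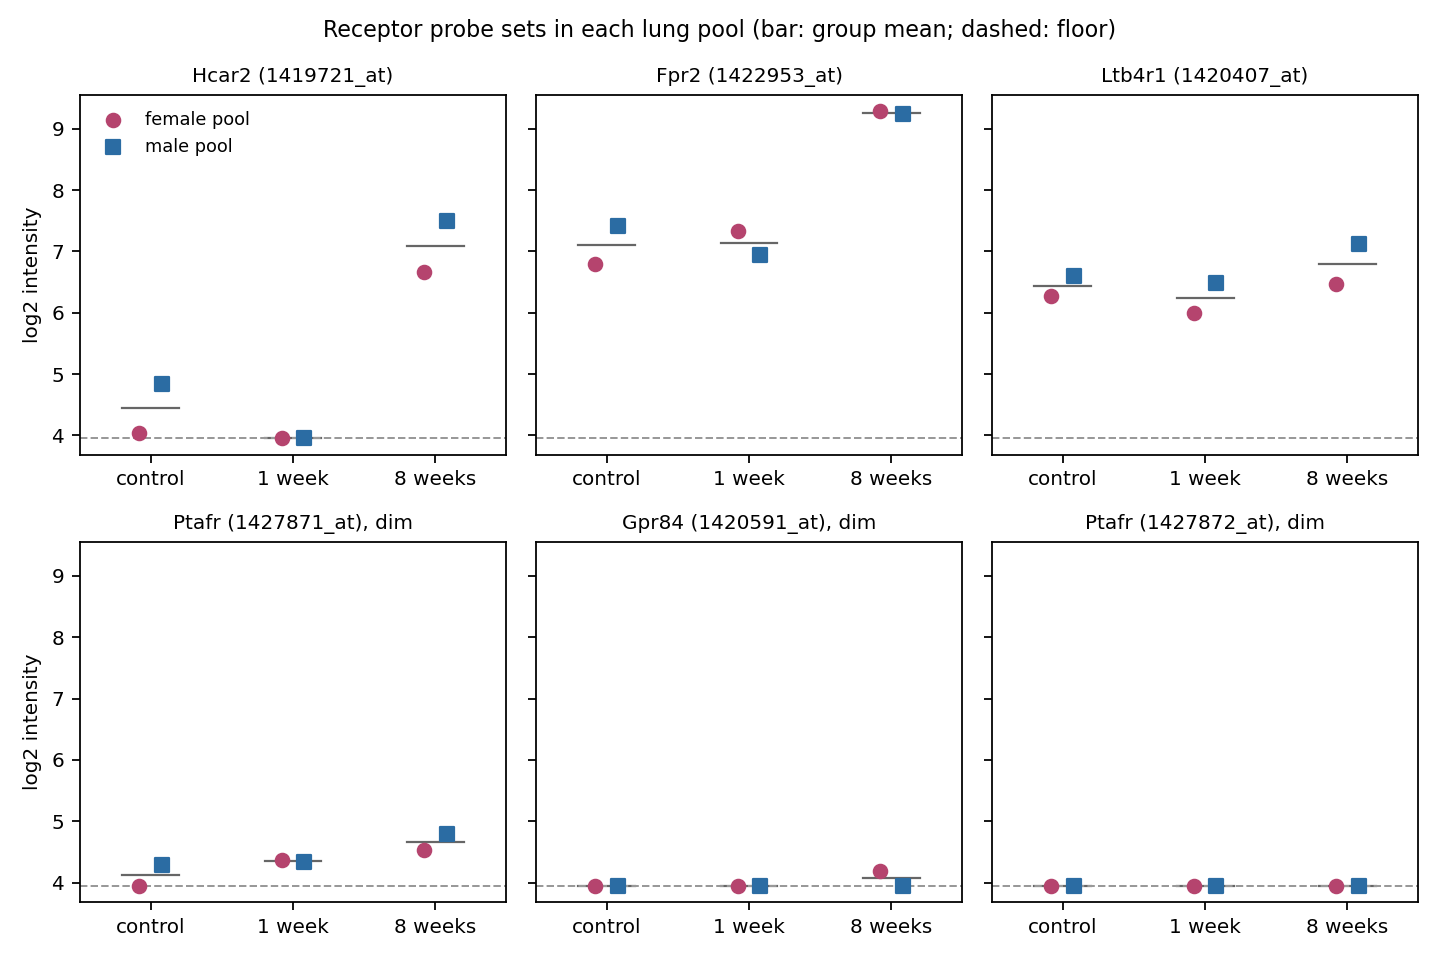
Normalized log2 intensity (vertical axis) of the 6 receptor probe sets in each lung pool by group (horizontal axis), with female pools as circles, male pools as squares, group means as bars and the floor as a dashed line. Hcar2 and Fpr2 stood apart at 8 weeks, Ltb4r1 overlapped between groups, and the 3 dim probe sets lay at or near the floor.

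Sex was not used to choose the receptors and could be tested. Ltb4r1 was lower in the female pool by 0.34 in control, 0.49 at 1 week and 0.65 at 8 weeks. The fitted female minus male difference was -0.49 ± 0.12 (lower in 3 of 3 groups, adjusted p = 0.0748), which missed the threshold. Hcar2 was lower in the female pool by 0.80 in control and 0.83 at 8 weeks, with both 1 week pools at the floor (-0.54 ± 0.20, adjusted p = 0.163). For Fpr2 the sexes differed by -0.06 ± 0.22 (adjusted p = 0.869), with the female pool lower in control only. Over the array 2244 probe sets (8.3%) passed for sex. Whether the transgenic change, over both durations, differed between the sexes was tested as an interaction. It gave 0.39 ± 2.60 for Hcar2, 0.83 ± 1.76 for Fpr2 and -0.23 ± 0.53 for Ltb4r1, each with an adjusted p of 1. Of 27022 probe sets 0 passed (0.0%, with 636 at an unadjusted p below 0.05). This fit took both durations together, so the gap between 1 and 8 weeks entered its error. For Hcar2 and Fpr2 that gap was large, and the wide errors leave large differences between the sexes possible.

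The ligands and enzymes that supply each receptor were described from lists of genes, 1 probe set per gene. For Fpr2, serum amyloid A3 (Saa3), an acute phase protein, rose at 8 weeks. Its deposited intensity was 78.64 and 92.42 in female and in male controls, 203.08 and 233.04 after 1 week, then 1394.26 and 1204.18 after 8 weeks. It was thus higher in the 1 week pools than in both controls and higher again at 8 weeks. The log2 change at 8 weeks was 4.09 ± 0.16 (adjusted p = 0.047, with 4.27 in females and 3.91 in males), and that at 1 week, 1.46, did not pass. Annexin A1, the other Fpr2 ligand measured, was at 0.10 (adjusted p = 0.674) and the peptide-cleaving neprilysin Mme at -0.17. Camp, Saa1, Saa2 and the neutrophil protease Ctsg were too dim. Of the list, 1 of 3 measured genes passed higher and 0 lower, with a median of 0.10. Of all 27022 probe sets 56 passed higher and 105 lower.

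Most genes of the leukotriene B4 list had larger differences at 8 weeks than the receptor Ltb4r1, while Lta4h and Ptgr1 had smaller ones. Of 6 measured genes 0 passed, with a list median of 1.08 against 0.03 over all probe sets. Both 8 week pools lay above both controls in 4 of them, against 23.0% of all 27022 probe sets. The largest difference was that of the synthase Ltc4s, which makes leukotriene C4 and not B4. Its deposited intensity was 53.48 and 52.55 in female and in male controls, 97.99 and 44.63 after 1 week, then 220.95 and 231.61 after 8 weeks. The log2 difference at 8 weeks was 2.27 (adjusted p = 0.0658). The 5-lipoxygenase Alox5, which makes the leukotriene precursor, was at 1.13 (0.0589), its activating protein Alox5ap at 1.03 (0.0603) and Cyp4f18, which inactivates leukotriene B4 in neutrophils, at 1.12 (0.0761). The leukotriene A4 hydrolase Lta4h, which makes leukotriene B4 itself, was at -0.11 and Ptgr1, which breaks it down, at 0.08. Alox5 and Alox5ap were therefore higher in each 8 week pool than in both controls, while Lta4h was not. The phospholipase Pla2g4a of the PAF list, which acts before Alox5, was at -0.02.

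For Hcar2, the genes of ketone body and butyrate metabolism had a median change of 0.06 at 8 weeks, with 0 of 7 passing. The largest differences were those of the monocarboxylate transporter Slc16a1 (0.44), which carries beta-hydroxybutyrate and butyrate, and of the ketone-using enzyme Oxct1 (0.28). The PAF list had a median of 0.27 with 0 of 8 passing, led by the PAF acetylhydrolase subunit Pafah1b3 (0.76, adjusted p = 0.0807) and the plasma PAF hydrolase Pla2g7 (0.55, adjusted p = 0.172). In adenosine supply and removal 0 of 7 passed, with a median of 0.20. There the ectonucleotidase Entpd1 was at 0.38 and the nucleoside transporters Slc29a3 and Slc29a1 at 0.36 and -0.31. At 1 week the medians of these 5 ligand lists lay between -0.05 and 0.25.

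Of 11 related receptors with a probe set, 6 were measured and 5 were too dim. Hcar1, the lactate receptor next to Hcar2, had a deposited intensity of 17.88 and 15.75 in female and in male controls, 20.92 and 17.04 after 1 week, then 24.73 and 26.32 after 8 weeks, and stayed below the limit for dim probe sets. Of the 6 above it 0 passed at 8 weeks, with a median of 0.31. The short-chain fatty acid receptor Ffar2 was at 1.43 (adjusted p = 0.108), Gpr35 at 0.73 (0.0849), the formyl peptide receptor relative Fpr-rs4 at 0.49 (0.202) and the long-chain fatty acid receptor Ffar4 at 0.12 (0.659).

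Among 23 measured G-protein receptors of other leukocyte families, 2 rose at 8 weeks and 0 fell, where 56 of all 27022 probe sets rose and 105 fell. These were the chemokine receptor Ccr1 (2.31 ± 0.21, adjusted p = 0.047) and the complement receptor C3ar1 (1.56 ± 0.16, adjusted p = 0.048). The list's median was 0.54 against 0.03 over all 27022 probe sets, and 21 of 23 genes were above 0. Of the 23, 15 had both 8 week pools above both controls, as did 23.0% of all probe sets. The list was chosen with earlier results of these data known. The macrophage adhesion receptor Adgre1 (1.38, adjusted p = 0.0709) and the nucleotide receptor P2ry2 (0.99, adjusted p = 0.11) came next. Probe sets of one gene disagreed in size. Ccr1 had a second value of 1.58 (adjusted p = 0.108) and C3ar1 a second of 0.80 (adjusted p = 0.0906). The anaphylatoxin receptor C5ar1 was at 0.73 (adjusted p = 0.131) by its brighter probe set and at 2.49 (adjusted p = 0.047) by the other. Hcar2 and Fpr2 lay at the upper end of this range, and Ltb4r1 in its lower part. Hcar2 was chosen on its 8 week value, so nothing can be read from its place.

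**Figure D2:**
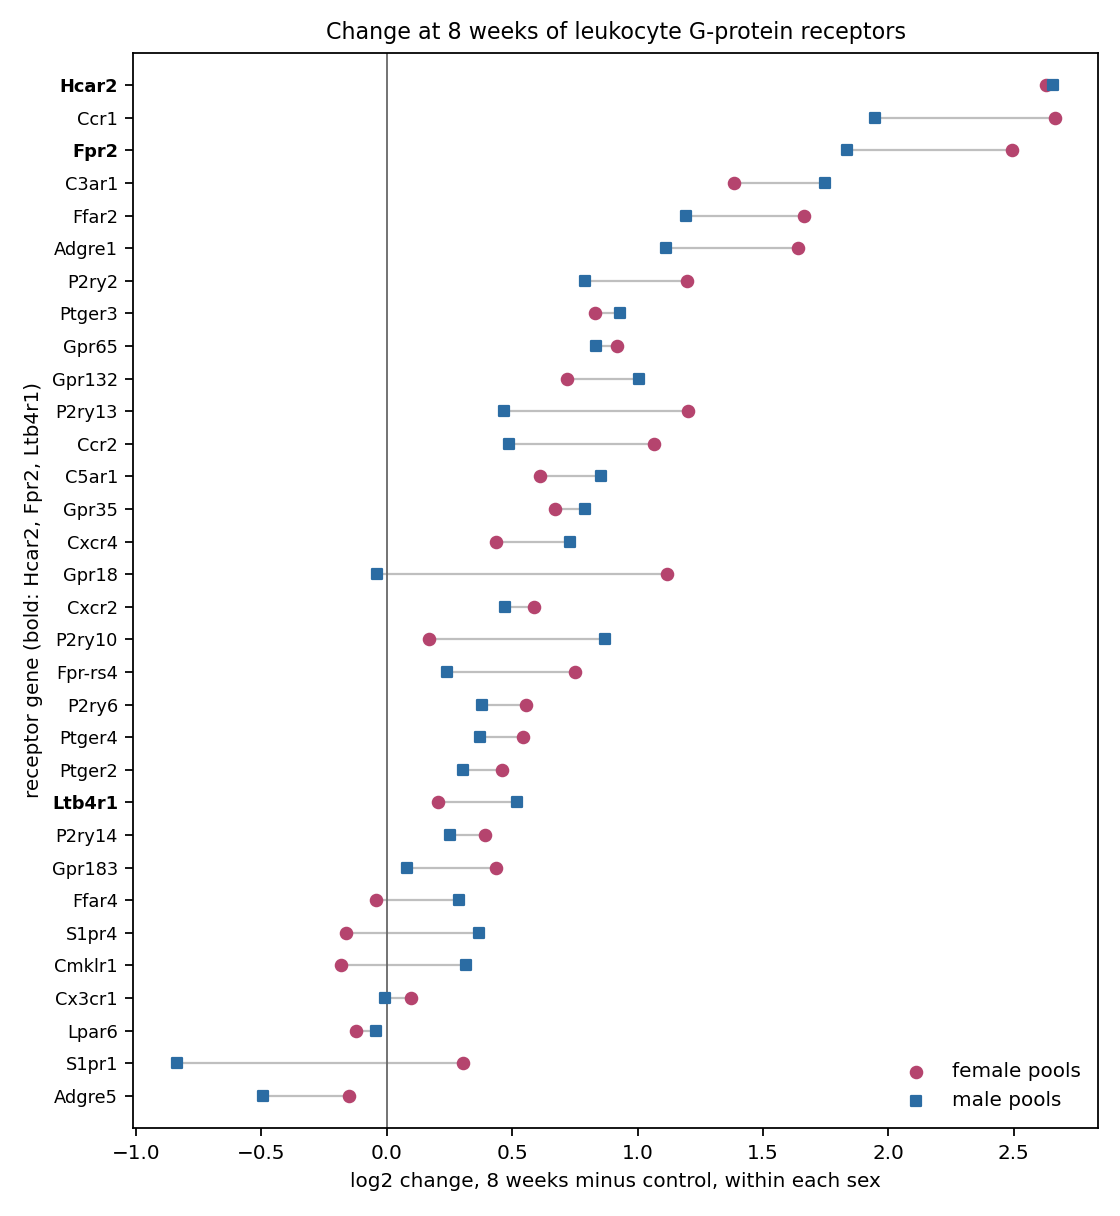
Change in normalized log2 intensity at 8 weeks against control (horizontal axis) in female (circles) and male (squares) pools for Hcar2, Fpr2 and Ltb4r1 (bold) and the measured related and leukocyte receptors, each at its brightest probe set and ordered by the mean of both sexes. Hcar2 was at 2.63 and 2.66, Fpr2 at 2.49 and 1.83, and Ltb4r1 at 0.21 and 0.52.

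Downstream of the receptors, the G proteins, receptor kinases, arrestins and Rgs proteins had a median of 0.09 at 8 weeks, and 0 of 24 passed. The highest were Rgs1 (0.90, adjusted p = 0.0711), which shortens Gi signals, and beta-arrestin Arrb2 (0.88, adjusted p = 0.0682), which ends receptor signalling at the membrane. The chemoattractant effectors had a median of 0.45, with 0 of 18 passing. In 11 both 8 week pools lay above both controls, against 23.0% of all 27022 probe sets. The largest differences were those of the NADPH oxidase subunits Cybb (1.05, adjusted p = 0.0827), Ncf4 (0.93, adjusted p = 0.0846) and Cyba (0.86, adjusted p = 0.0711) and of the Src-family kinase Fgr (1.00, adjusted p = 0.109).

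Markers of the cells known to carry these receptors were examined at 8 weeks against control, where 0.596% of all probe sets passed, 56 of 27022 higher. Neutrophil markers had a median change of 1.42, and 4 of 13 rose: the collagenase Mmp8 (1.96), the gelatinase Mmp9 (1.52), and the receptors Clec4d (1.60) and Trem1 (1.50), each with an adjusted p of 0.047 or 0.048. Their summed deposited intensity was 4434 to 5279 in the control and 1 week pools and 12046 and 11856 at 8 weeks. Most of the 8 week sum came from S100a8 (4518.51 in females and 5317.65 in males) and S100a9 (4154.96 and 3533.87). Of the other granule genes, Lcn2 was at 1.54 (2.15 in females and 0.93 in males) and Ngp at 0.58, and neither passed. Mpo was at 0.03 and Ltf at 0.59 (0.002 in females and 1.18 in males), and Camp and Elane were too dim. Alveolar macrophage markers had a median of 1.72 with 0 of 13 passing, and a sum of 4699 to 6821 against 11909 and 9537. The largest part of the 8 week sum was Chil3 (3759.19 in females and 2762.51 in males). Of general macrophage markers 1 of 12 rose (Ms4a7, 2.40, adjusted p = 0.048), with a median of 0.93 and a sum of 10802 to 14052 against 18205 and 16641. Monocyte markers had a median of 0.72 with 0 of 7 passing, and a sum of 2074 to 2244 against 3151 and 2959. For T and B cells the median was 0.43 with 0 of 9 passing, and the sums overlapped. The part of these cell types in the receptors' values was not tested. These lists hold genes that earlier results of the same arrays had shown.

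Fat cells also carry Hcar2. The adipocyte list had a median of -0.05 with 0 of 7 passing, and its sum was 994 in the female and 1493 in the male 8 week pool against 1298 and 1348 in the controls. Adiponectin (Adipoq) was at 144.14 and 155.53 in the control pools, 324.12 and 175.23 after 1 week, then 23.66 and 139.84 after 8 weeks, while Lep and Ucp1 were too dim. Adipoq was thus low in the female 8 week pool only. The lipid droplet protein Cidec, also on the alveolar macrophage list, was higher at 8 weeks than control by 0.89 in females and 1.50 in males. Resistin (Retn) was higher by 0.26 and 0.47. Pck1 was lower in both sexes, at -1.24 in females and -0.13 in males. The remaining genes of the list were lower in females and higher in males on the log2 scale, and none passed. The part of fat cells in the Hcar2 values was not tested. Mast cell and eosinophil markers had a median of 0.43 with 0 of 4 measured genes passing, and Cpa3, Tpsb2, Prg2, Epx and Ccr3 too dim. Epithelial, endothelial and smooth muscle markers had medians of 0.03, -0.16 and -0.25, with 0 passing. Cardiac muscle markers were at -1.66 (0 of 8 passing), with a sum of 11718 to 16828 in the control and 1 week pools and 2523 and 5696 at 8 weeks. The part of heart muscle RNA in the receptors' values was not tested.

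**Figure D3:**
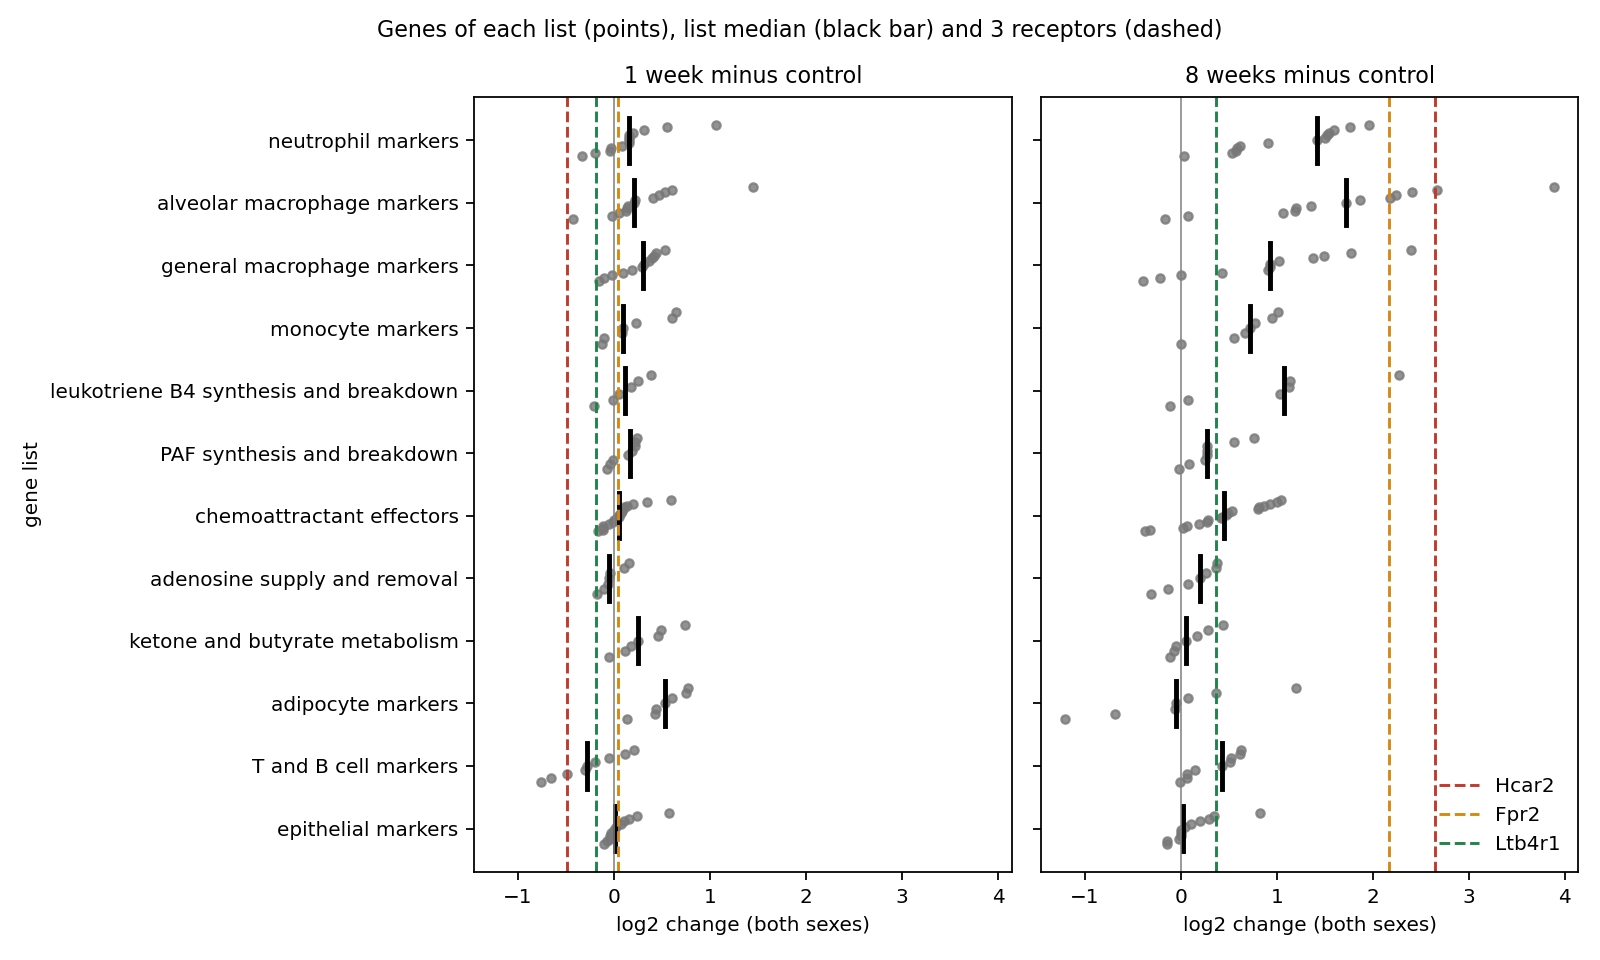
Change in normalized log2 intensity (horizontal axes) at 1 week (left) and 8 weeks (right) against control for the genes of 12 lists (points), with list medians as black bars and the values of Hcar2, Fpr2 and Ltb4r1 as dashed lines. At 8 weeks Hcar2 (2.64), which was chosen on its 8 week value, and Fpr2 (2.16) lay above the median of every list drawn. Single genes lay above both, namely Chil3 (3.89) and Siglecf (2.67) of the alveolar macrophage list. Ltb4r1 (0.36) lay below the medians of the neutrophil, monocyte, leukotriene B4, effector, T and B cell and both macrophage lists.

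The calls at 8 weeks were few and close to the threshold, the smallest adjusted p being 0.047. They numbered 0 without any one of the control, 1 week or female 8 week pools and 1074 without the male 8 week pool. The genes of the lists that passed did so in 6 or 7 of 14 or 15 alternatives.

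The genes whose pattern over the 6 pools was most like that of each receptor were ranked among 12551 genes by the root mean square log2 difference after centring each on its own mean. The 8 nearest to Hcar2 were the lysosomal channel Mcoln3 (0.319), the fatty acid binding protein Fabp1 (0.427), C5ar1 (0.44), the sialic acid lectin Siglecf (0.466), the interleukin 1 receptor antagonist Il1rn (0.481), the lectin Clec4n (0.488), the proton pump subunit Atp6v0d2 (0.51) and the stefin Stfa2l1 (0.517). Fpr2 would have taken rank 7 in this order (0.499) and Ltb4r1 rank 1088 (1.17). Fabp1, Siglecf and Atp6v0d2 are also on the alveolar macrophage list. In each of them the female 1 week pool was above its control, and so it was in Mcoln3, C5ar1, Il1rn and Clec4n. In Hcar2 and Stfa2l1 it was not. Genes with a value at the floor, as Hcar2 had at 1 week, were left out of this ranking. Siglecf, for example, was at 28.25 and 81.47 in female and in male controls, 65.49 and 36.23 after 1 week, then 289.74 and 268.98 after 8 weeks. Nearest to Fpr2 were Il1rn (0.175), the chemokine Ccl6 (0.18) and the cytokine receptor chain Csf2rb (0.197). Il1rn was at 26.57 and 35.21 in the control pools, 38.55 and 33.11 after 1 week, then 164.55 and 150.0 after 8 weeks. Nearest to Ltb4r1 were the small GTPase Ralb (0.0488), the lymphoid transcription factor Ikzf1 (0.057) and the RNA processing factor Cstf2 (0.0581), whose 8 week changes were 0.34, 0.37 and 0.24. A small distance was easier to reach for Ltb4r1, whose own range over the pools was 1.12, than for Hcar2, whose range was 3.55.

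Among the ligand, receptor and signalling lists 6 of 102 measured genes (5.88%) passed for sex, a share no higher than the 8.3% of all probe sets. Lpcat2, which makes PAF in activated leukocytes, was higher in females by 1.91 ± 0.15 (adjusted p = 0.0132). Its deposited intensity was 321.87, 424.64 and 358.77 in the female pools of control, 1 week and 8 weeks, and 95.78, 88.34 and 99.36 in the male pools. The female pools thus lay well above the male ones in 3 of 3 groups, with no overlap. The phospholipase Pla2g4a, which frees the precursor of PAF and of leukotrienes, was lower in females (-0.74, adjusted p = 0.0312). Gpr35 (0.60, adjusted p = 0.0428), the PI3-kinase gamma subunit Pik3r6 (1.61, adjusted p = 0.0186) and the GTPase Rac2 (0.61, adjusted p = 0.0493) were higher in females. Rgs19 was lower (-0.61, adjusted p = 0.0442). Over the array the count of calls for sex was 0 without either control pool, 2 without either 1 week pool, and 1249 or 1288 without the female or the male 8 week pool.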

How the data were processed

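Lung RNA was converted to biotin-labelled antisense copies by in vitro transcription, per the labels' protocols. Tissue freezing and RNA extraction are given for the 4 transgenic pools alone. The deposited values were linear signal intensity, never below 10, and the authors' summary and scaling steps are not given in the sources used here. Median deposited intensity was 50.49 to 63.41, 11.1% to 12.5% of values were at 10, and log2 values of different pools correlated at 0.942 to 0.983.

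From these values the 6 arrays were quantile normalized, raised to a floor at the 20th percentile and log2 transformed, and probe sets with a mean above the 40th percentile were kept (27022 of 45037). By the platform's annotation 34945 probe sets named 1 gene, 932 named several and 9160 named none. Limma 3.58.1 (R 4.3.3) fitted group and sex over all 6 arrays (2 residual degrees of freedom, prior 2.77), or transgene, sex and their interaction (prior 2.48), with Benjamini-Hochberg adjustment. The residual spread was how far the female and male changes differed, so spread between pools and sex-specific responses cannot be separated. Genes of a list were taken at their brightest kept probe set, and those named passed or were among the 4 largest changes at 8 weeks. Exceptions were Lta4h, Ptgr1, C5ar1, S100a8, Mpo, Ltf, Ngp and the 8 week value of Pla2g4a, which were named after their values were seen. Likeness left out genes with a value at the floor. The model was tested on simulated data. The receptors, gene lists and rules were chosen with earlier results of these data known.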

Additional observations from a re-analysis of the deposited data

Results flagged for a closer look

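Fpr2 moved in opposite directions in the sexes at 1 week. The female 1 week pool was above its control by 0.54 on the log2 scale and the male 1 week pool was at -0.46 against its own. This difference was not tested at 1 week, and over both durations the interaction was 0.83 ± 1.76 (limma, adjusted p = 1). The error of that interaction held the gap between 1 and 8 weeks, so it cannot decide on 1 week. At 8 weeks both sexes were higher than control.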

How the results depend on the processing

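The count of probe sets passing at 8 weeks against control (161) was 461 with the values as deposited, 705 with arrays centred on their medians, 439 with a floor at the 40th percentile, 583 with log2(value + 16), 505 with a filter at the 60th percentile and 1916 with trend and robust variances. It was 0 with no filter, with no sex term and with only the arrays compared, and 0 to 1074 when 1 pool was left out. With trend and robust variances 3 passed at 1 week, 752 at 8 weeks against 1 week and 4183 for sex. A filter at the 60th percentile gave 62 at 8 weeks against 1 week. For sex, no filter gave 0, and leaving out 1 pool gave 0 to 1288. Hcar2 at 8 weeks against control was 2.47 with values as deposited, 2.71 with centred arrays, 1.90 with the higher floor, 2.0 with log2(value + 16), and 2.43 to 2.86 without 1 pool. Hcar2 fell below the limit for dim probe sets as deposited, centred, with the higher filter and without either 8 week pool. The median over all kept probe sets at 8 weeks was -0.13 as deposited and 0.14 with centred arrays. Hcar2, Fpr2 and Ltb4r1 stayed above 0 at 8 weeks against control in all 15 alternatives, Ltb4r1 at 0.09 to 0.48. In 7 of these the Hcar2 difference stayed at 2.64, since the filter, sex term, variance setting and 1 week pools do not enter it. Hcar2 was also chosen on this contrast, so nothing can be read from its sign. Fpr2 at 1 week ran from -0.38 to 0.45, and its sex difference from -0.29 to 0.21. The cause of these shifts was not tested. Leaving out a pool leaves 1 pool in a group, which is assumed to vary like the others, and the interaction could not be fitted without either control pool. The fit with group and sex already pairs the pools of one sex across groups, and the fit with no sex term is the unpaired one.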
